A study of Mus musculus with 6 samples.

Results

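The genes described here encode the kinases that phosphorylate the cap-binding protein eIF4E, the proteins that bind and hold eIF4E, and the subunits and close relatives of the eIF4F complex that loads ribosomes onto capped mRNA. They were chosen by name as 10 genes (Mknk1, Mknk2, Eif4e, Eif4e2, Eif4ebp1, Eif4ebp2, Eif4g1, Eif4g2, Eif4a1 and Eif4a2), and every probe annotated to them was taken. Of the 25696 probes measured, 14 belonged to 9 of these genes, out of 16593 genes named on the array. Eif4g1 had no probe in the annotation used, so its signal was not analysed here. The list was drawn up with the knockout and control signals of these arrays already known, so the differences of its members are given as a description and none is tested as a finding.

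Heart RNA came from 6 female mice of the C57BL/6J strain background, 20 weeks old and fasted for 5 hours on regular chow, with 1 bead array per mouse. The 3 control mice were Nelf-b f/f, and the 3 knockout mice were Nelf-b f/f; CreER, where CreER is a Cre recombinase activated by tamoxifen. Both genotypes received tamoxifen at 8 weeks of age. Nelfb (Nelf-b) encodes a subunit of the negative elongation factor, which holds RNA polymerase II shortly after transcription starts. The controls had no CreER, so an effect of the recombinase cannot be told apart from that of the deleted gene, and the labels name neither its promoter nor the deleted exons.

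Most mRNAs are translated after eIF4E has bound their 5′ cap. The scaffold eIF4G then joins eIF4E to the RNA helicase eIF4A, and together they form eIF4F. Hypophosphorylated 4E-BP proteins, encoded by Eif4ebp1 and Eif4ebp2, occupy the site on eIF4E that eIF4G needs, and phosphorylation by mTORC1 releases them. The kinases MNK1 and MNK2, encoded by Mknk1 and Mknk2, dock on eIF4G and phosphorylate eIF4E. Both are activated by the MAP kinases ERK and p38, and MNK2 has the higher activity in unstimulated cells. Signals of mRNA say nothing of these phosphorylations.

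The table that was not normalized names each array by the opposite group from the sample records: each of its 6 columns matched 1 column of the value table in rank order (Spearman's rho of any other pair was at most 0.854), and that column was always the same-numbered replicate of the other group. Groups follow the sample records here, and with the other headers every sign below turns. Nelfb was lower in all 3 knockout hearts at both of its probes, with log2 differences of -1.61 ± 0.13 and -0.94 ± 0.14 (SE), under the names of the sample records. Detected probes made up 38.8% to 43.8% of an array. Control array 1 stood apart on the second principal component (18.3% of variance), at 22.36 against -9.86 to 1.76 for the other arrays. In the summed signal of cell type markers, cardiomyocyte genes ranged from 82853 to 88731 in controls and from 81020 to 90218 in knockouts (linear normalized intensity, 7 of 8 genes with a probe). Most of that sum came from Myl3, Myl2, Myh6 and Actc1. Their signals were near the top of the scale, which quantile normalization makes equal on every array. The sum therefore cannot show whether cardiomyocyte content was alike. Tnni3 was 602, 1360 and 1897 in controls and 618, 464 and 582 in knockouts. Pln was 1199, 1905 and 2088 against 1354, 1351 and 1659. None of the 6 tested cardiomyocyte genes was called. Of 3 tested smooth muscle cell markers, only Acta2 was called lower. The summed level of the 4 genes was 2512 to 3298 in controls and 1278 to 1912 in knockouts, with Cnn1 not detected on any array. Nearly all of this sum was Acta2, at 2471, 2409 and 3177 in controls and 1782, 1161 and 1564 in knockouts. Myh11 overlapped between groups, at 86.3, 90.8 and 104 against 119, 101 and 68.4. Tagln also overlapped, at 5.40, 9.82 and 13.6 against 7.64, 11.3 and 4.76. No marker was called among 6 fibroblast, 6 endothelial cell, 5 macrophage, 2 red blood cell, 1 adipocyte and 1 atrial muscle genes tested. The summed level of the 2 red blood cell genes still varied widely, from 1532 to 10061 in controls and from 5886 to 16506 in knockouts, with the highest value in knockout replicate 1. That heart also stood apart in the 3 atrial muscle genes (Myl4, Sln and Myl7), whose summed level was 1335 there against 44.5 to 51.4 in controls and 42.6 and 52.1 in knockout replicates 2 and 3. Sln and Myl7 were detected on that array alone. Without knockout replicate 1 the Mknk2 difference was 1.49 and called, and that of Eif4ebp1 was -0.69 and not called. The part of the other cell types in the differences below was not tested.

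Mknk2 was the member with the largest difference. Its normalized signal was 9.66, 9.72 and 9.55 in control replicates 1 to 3 and 10.90, 11.29 and 10.97 in knockout replicates 1 to 3 (log2 of intensity after background correction and quantile normalization). Every knockout heart lay above every control heart, and knockout replicate 2 was the highest. The means were 9.64 ± 0.09 in controls and 11.05 ± 0.21 in knockouts (SD, n = 3 each), a difference of 1.41 ± 0.15 (SE) or 2.66-fold, with a 95% interval from 1.08 to 1.74. The gap between the groups was already visible before normalization. The intensity as deposited was 818.5, 1303 and 529.1 in controls and 2261, 2758 and 1710 in knockouts, and the probe was detected on all 6 arrays. In the value table, normalized between arrays with no stated background correction, the group means were 1126 ± 55 and 2553 ± 370 (SD, n = 3 each), a ratio of 2.27. In a bulk heart sample, more Mknk2 RNA per cell cannot be told apart from more cells that express it.

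Mknk1, the paralogue of Mknk2, differed far less. Its signal was 7.92, 7.79 and 7.73 in controls and 7.96, 7.94 and 8.22 in knockouts. The groups did not overlap, but control replicate 1 and knockout replicate 2 were only 0.02 apart. The difference was 0.23 ± 0.14 (SE), with a 95% interval from -0.09 to 0.54, which leaves out the size seen for Mknk2. Within an array, the log2 ratio of Mknk2 to Mknk1 signal was higher in knockouts by 1.18, and in single knockout hearts by 0.92 to 1.52 above the control mean. Knockout replicate 3 had the highest Mknk1 signal and the smallest shift of this ratio.

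The sequences just upstream of the annotated start sites are shown for these 2 kinase genes, because NELF acts close to start sites and the paralogues differed. They are the 250 bases before the start site, from RefSeq (GRCm38.p6), with capitals at matches to 5 searched motifs. The Mknk2 window is chr10:80676294-80676543 (minus strand). Mknk1 has 2 overlapping windows, of which the one further upstream is chr4:115838948-115839197 (plus strand).
Mknk2: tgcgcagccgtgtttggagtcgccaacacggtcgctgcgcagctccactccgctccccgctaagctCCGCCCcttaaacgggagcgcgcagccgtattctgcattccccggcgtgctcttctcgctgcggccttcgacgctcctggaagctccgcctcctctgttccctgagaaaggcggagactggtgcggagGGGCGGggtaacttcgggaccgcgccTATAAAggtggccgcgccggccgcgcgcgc
Mknk1: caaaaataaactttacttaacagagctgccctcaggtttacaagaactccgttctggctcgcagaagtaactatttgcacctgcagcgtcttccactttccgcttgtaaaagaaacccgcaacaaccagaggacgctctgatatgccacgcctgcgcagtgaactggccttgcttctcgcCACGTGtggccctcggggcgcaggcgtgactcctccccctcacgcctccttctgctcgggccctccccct
Both strands were searched for the TATA box, written here as TATAAA. The GC box, a site that the factor Sp1 binds, was searched as GGGCGG. The E-box, a site for helix-loop-helix factors, was searched as CACGTG. The CCAAT box was searched by the letters of its name. The cAMP response element, a site for CREB proteins, was searched as TGACGTCA. The last 2 motifs had no match in either window. No matches overlapped in these windows. Mknk2 held a TATA box match whose first base lay 30 bases before the start site and 2 GC box matches. The Mknk1 window shown held 1 E-box match, 70 bases before its start site. The same match lay 93 bases before the start site of the other Mknk1 window. Of 32851 mouse promoter windows of this length, 12.4% held a TATA box match, 32.7% a GC box match, 6.02% an E-box match, 33.8% a CCAAT box match and 1.55% a cAMP response element match. No other member window, of the 8 members that had one, held a TATA box match. GC content was 68.4% for Mknk2, and 56.4% and 60.0% in the 2 windows of Mknk1, against a median of 52.4% over all windows. Neither the GC content nor the GC boxes set Mknk2 apart from the other members. Eif4ebp2 had 70.0% and 2 GC box matches, and Eif4a2 had 66.4% and 3. GC boxes also occurred in the windows of Eif4e2, Eif4g1 and Eif4a1, but not in those of Eif4e. These letters are a description of the windows, and nothing on these arrays measured binding or pausing there.

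**Figure D1:**
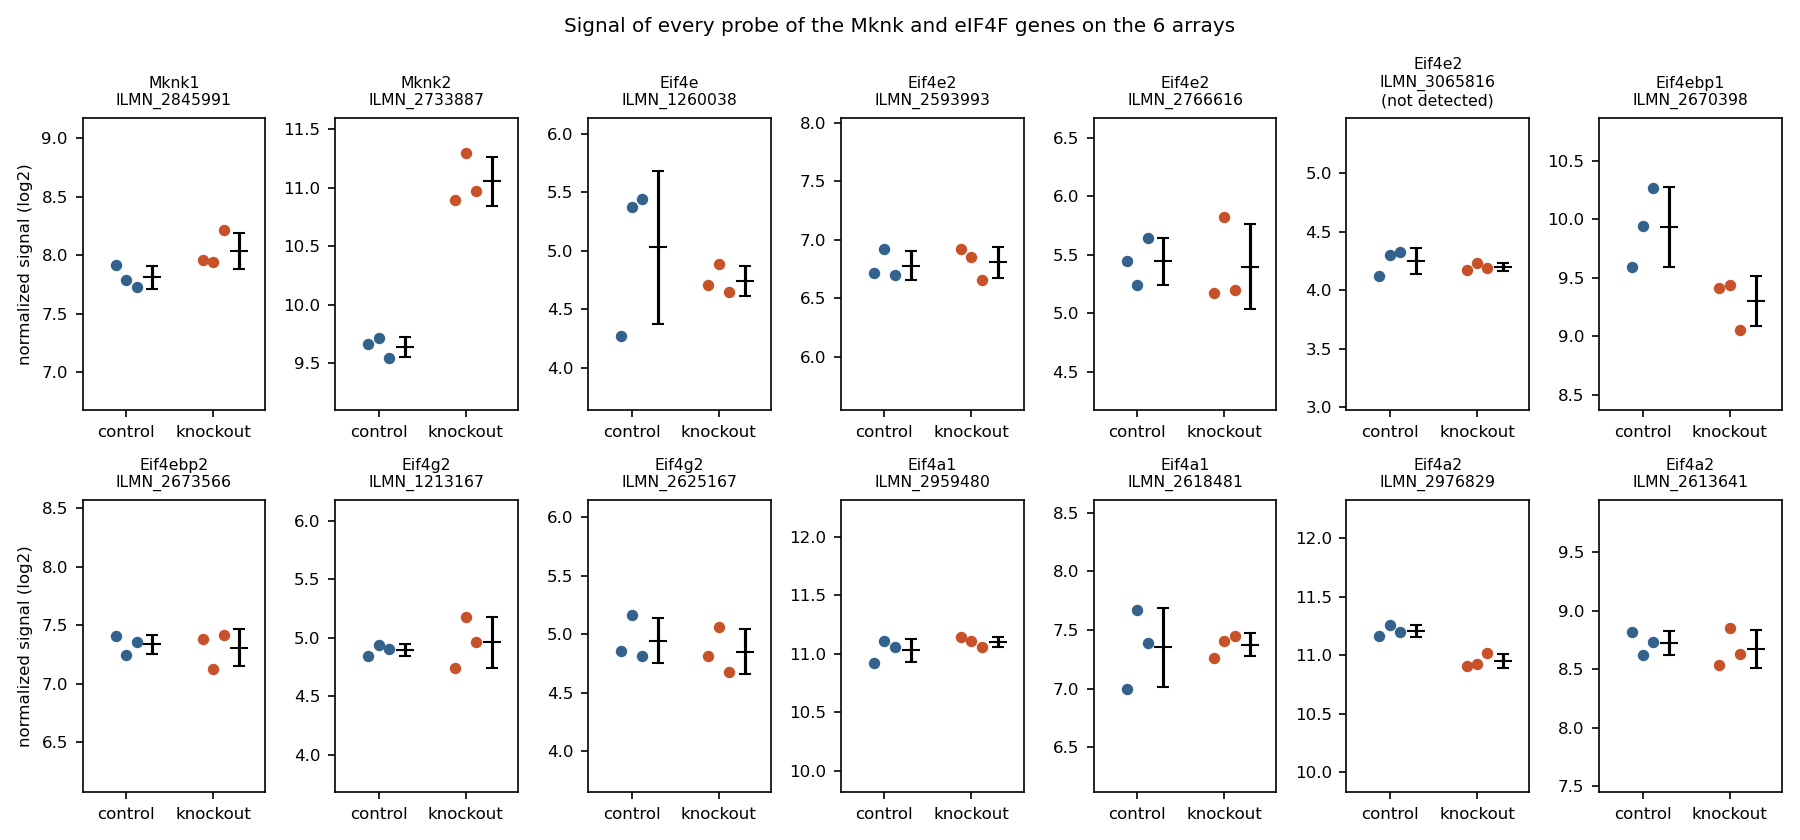
Normalized signal (log2 of intensity, vertical axes, all spanning the same number of units) of the 14 probes on the 3 control (blue) and 3 knockout (orange) arrays, from replicate 1 at the left to replicate 3 at the right. Bars beside the points are the mean ± SD. Mknk2 is 9.55 to 9.72 in controls and 10.90 to 11.29 in knockouts, while most other probes overlap between groups.

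Eif4ebp1, which encodes the eIF4E-binding protein 4E-BP1, had the next largest difference and was lower in knockouts. Its signal was 9.59, 9.94 and 10.27 in controls and 9.41, 9.43 and 9.05 in knockouts. The groups did not overlap, but controls spread over a wider range than the gap between the groups, and control replicate 1 lay 0.15 above the nearest knockout value. The difference was -0.63 ± 0.19 (SE), or 1.55-fold lower, with a 95% interval from -1.04 to -0.22. Eif4ebp2, which encodes the related 4E-BP2, was 7.41, 7.25 and 7.35 in controls and 7.38, 7.12 and 7.41 in knockouts. These values overlapped, with a difference of -0.03 ± 0.14 (SE) and an interval from -0.34 to 0.29. Within an array, the log2 ratio of Eif4ebp1 to Eif4ebp2 signal was lower in knockouts by 0.60 on average, but its groups overlapped.

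At the tested probes of the cap-binding protein genes the groups overlapped. The only Eif4e probe was close to the detection limit, at 4.27, 5.37 and 5.44 in controls and 4.70, 4.89 and 4.64 in knockouts. It was detected on 2 arrays of each group. Control replicate 1, the array that stood apart, was below every knockout and undetected, and the other 2 controls were above all knockouts. The difference of -0.28 ± 0.26 (SE) depended on single controls: it was -0.67 without control replicate 1, -0.11 without control replicate 2 and -0.08 without control replicate 3. Eif4e2 encodes 4EHP, a cap-binding relative that does not bind eIF4G and represses translation. Its probe ILMN_2593993 was 6.72, 6.92 and 6.70 in controls and 6.92, 6.85 and 6.66 in knockouts. Its probe ILMN_2766616 varied more, at 5.45, 5.24 and 5.64 against 5.18, 5.82 and 5.20. The groups overlapped at both, with differences of 0.03 ± 0.14 and -0.04 ± 0.19 (SE). A further Eif4e2 probe, annotated to another transcript of the gene, was detected on 0 of 6 arrays and was not tested.

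Among the scaffold and helicase genes, only 1 of 2 Eif4a2 probes separated the groups. Eif4a2, like Eif4a1, encodes an RNA helicase of eIF4F. Its probe ILMN_2976829 was 11.16, 11.26 and 11.20 in controls and 10.90, 10.93 and 11.02 in knockouts, so that every knockout was below every control. That difference was small, at -0.26 ± 0.13 (SE), with an interval from -0.55 to 0.04. The other Eif4a2 probe, ILMN_2613641, overlapped between groups, at 8.82, 8.62 and 8.74 against 8.53, 8.85 and 8.63, with a difference of -0.05 ± 0.15 (SE). Both Eif4a1 probes overlapped between groups, with differences of 0.07 ± 0.14 for ILMN_2959480 and 0.02 ± 0.18 for ILMN_2618481 (SE). Within an array, the log2 ratio of ILMN_2976829 (Eif4a2) to ILMN_2959480 (Eif4a1) changed by -0.33 in knockouts, without overlap between groups. The other probes of these genes were not compared in this way. Eif4g2 encodes DAP5, a relative of eIF4G that lacks the region that binds eIF4E. Its probes lay near the low end of detected signals, at 4.84 to 4.94 and 4.81 to 5.16 in controls and at 4.75 to 5.18 and 4.68 to 5.06 in knockouts. Their differences were 0.07 ± 0.15 and -0.09 ± 0.16 (SE). For the 4 genes with several tested probes, the probes of a gene differed from each other by 0.05 to 0.20 in their knockout difference.

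Over the members as a set, 1 of the 13 tested probes, that of Mknk2, was called higher and 0 were called lower. Called means that the adjusted p (Benjamini-Hochberg) was under 0.05 in limma's fit over all 10407 probes detected on at least 3 arrays. Of all tested probes 3.80% were called, 1.92% higher and 1.87% lower. In 4 of the 13 (Mknk2, Mknk1, Eif4ebp1 and 1 Eif4a2 probe) the groups did not overlap, as in 24.3% of all tested probes. The median difference of the 13 was -0.03, against 0.01 for all tested probes. Without Mknk2 and Eif4ebp1, the other 11 probes ranged from -0.28 to 0.23, and their 95% intervals reached from -0.85, for Eif4e, to 0.54, for Mknk1. Among all tested probes Mknk2 was rank 18 by size of rise, and Eif4ebp1 was rank 264 by size of fall. These counts and ranks come from the values that led to the choice of genes and support nothing further.

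**Figure D2:**
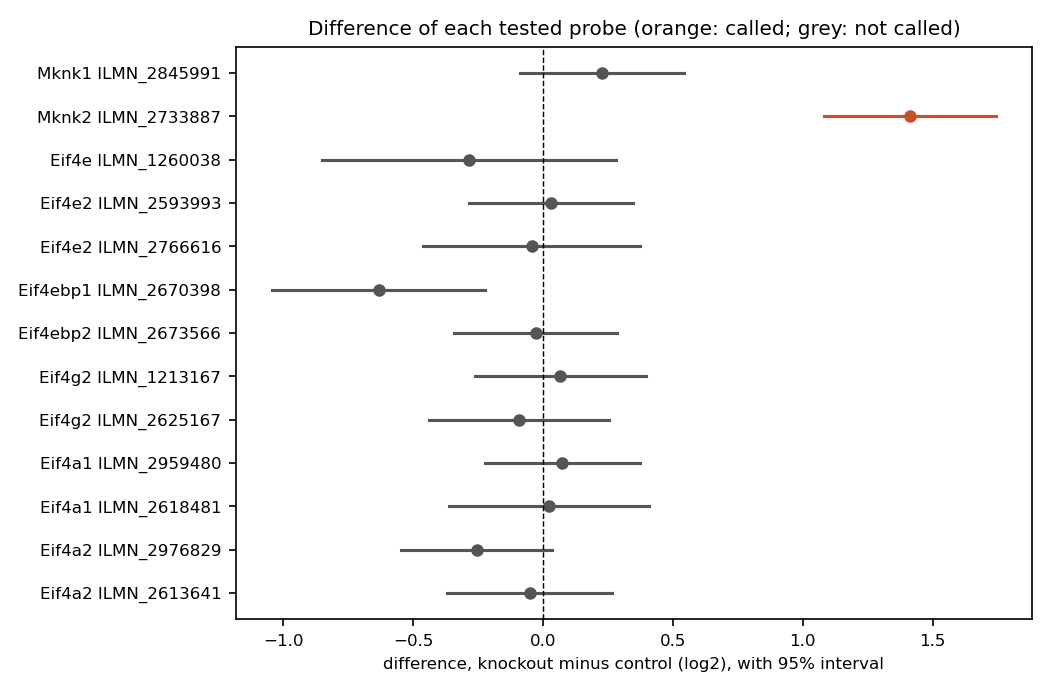
Difference between knockout and control (log2, horizontal axis) of the 13 tested probes with the 95% interval from limma. The Mknk2 probe (orange, called) has an interval from 1.08 to 1.74, the Eif4ebp1 interval runs from -1.04 to -0.22, and the other 11 intervals hold 0.

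The genes whose pattern over the 6 arrays was most like that of Mknk2 were sought among the tested probes of named genes. The most correlated probe of each gene was kept. The 5 with the highest Pearson correlation were Dap3, a mitochondrial ribosomal protein gene (r = 0.998), Hmgn2, which encodes a nucleosome-binding protein (r = 0.997), Faf1 (r = 0.996), the muscle adenylosuccinate synthase gene Adssl1 (r = 0.996) and Rbm38, which encodes an RNA-binding protein (r = 0.995). These arrays form 2 separate groups, so that any gene that differs between the groups correlates strongly, and the values are a description. The sizes of the 5 differed widely: the log2 difference was 1.49 ± 0.16 (SE) for Adssl1, 0.76 ± 0.14 for Hmgn2, 0.53 ± 0.13 for Rbm38, 0.44 ± 0.13 for Faf1 and 0.23 ± 0.13 for Dap3. Adssl1, Hmgn2 and Rbm38 were called (limma, adjusted p = 8.3e-04, 0.0144 and 0.0492), Rbm38 only just under the threshold. Faf1 and Dap3 were not called (limma, adjusted p = 0.0938 and 0.374).

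The genes around these members were listed by role, and their calls are given beside the share over all tested genes. Over all 7579 tested genes, 4.43% had a called probe, 2.26% one called higher and 2.18% one called lower. The lists are short, and none was tested against these shares. None of 10 tested relatives and partners of eIF4F was called, with a median difference of -0.01. The members of that list with the smallest p were Eif4e3, another eIF4E relative (-0.43 ± 0.14 SE, adjusted p = 0.112), and the poly(A)-binding protein gene Pabpc4 (-0.40 ± 0.14 SE, adjusted p = 0.145). The other tested probes of Eif4e3 had -0.24 ± 0.23 and -0.13 ± 0.17 (SE), with overlap between groups. None of 11 tested genes of the MAP kinase cascades that feed MNK was called either (median -0.11). Both lists gained calls in some of 15 other processing settings. The eIF4F relatives did so in 4 settings (at most 2 genes) and the cascade genes in 5 (at most 3 genes). Map2k3, a kinase that activates p38, was 10.09, 9.82 and 9.98 in controls and 10.47, 10.42 and 10.55 in knockouts, with a difference of 0.52 ± 0.14 (SE) and an adjusted p of 0.0667. Araf, a kinase at the head of the ERK cascade, had -0.37 ± 0.14 (SE) and an adjusted p of 0.168. Its other tested probe had -0.16 ± 0.19 (SE), with overlap between groups. The genes of ERK1 and ERK2 themselves had no probe in the annotation and were not analysed here.

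In the list of mTORC1 with its regulators and downstream genes, 2 of 14 tested genes were called higher and 0 lower. Ddit4, which encodes an inhibitor of mTORC1 signalling, was 6.31, 7.13 and 6.52 in controls and 7.26, 8.24 and 8.07 in knockouts. The groups did not overlap, although knockout replicate 1 was only 0.13 above control replicate 2. It rose by 1.20 ± 0.26 (SE), or 2.30-fold (limma, adjusted p = 0.0291). Eef2, the elongation factor that moves the ribosome along the mRNA, had 3 tested probes. The first (ILMN_1239110) was 7.43, 7.31 and 6.97 in controls and 7.99, 8.23 and 8.02 in knockouts, a rise of 0.84 ± 0.16 (SE, adjusted p = 0.0160). The second (ILMN_2589181) rose by 0.70 ± 0.14 (adjusted p = 0.0230), and the remaining one had 0.28 ± 0.14 and was not called (adjusted p = 0.296), without overlap between groups at any of the 3. The median of the 14 genes was 0.19. Without control replicate 3 or knockout replicate 2, no gene of this list was called: for Ddit4 the adjusted p was then 0.133 and 0.110, and for the first Eef2 probe 0.0864 and 0.0711. Without control replicate 1 or knockout replicate 3, Ddit4 was not called (0.0741 and 0.0886), and Eef2 was. With median scaling the call of Eef2 was lost (0.348), and with no detection filter that of Ddit4 (0.160).

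Of other initiation factors, none of 9 tested eIF3 subunit genes was called (median 0.03). In 5 of 15 other processing settings this list gained calls, of at most 2 genes. Eif3f had -0.53 ± 0.15 (SE, adjusted p = 0.0751) and Eif3k -0.80 ± 0.27 (SE, adjusted p = 0.126). Among 12 tested genes of eIF1, eIF2, eIF2B, eIF5 and eIF6, Eif5 rose and 0 fell, with a median of 0.22. Eif5 encodes the factor that prompts eIF2 to hydrolyse its GTP at the start codon. Its called probe was 7.95, 7.28 and 7.63 in controls and 8.42, 8.37 and 8.48 in knockouts, a rise of 0.80 ± 0.17 (SE, adjusted p = 0.0287). The other 2 Eif5 probes had 0.19 ± 0.15 and 0.09 ± 0.15 and were not called (adjusted p = 0.531 and 0.786), so the probes of this gene disagree in size. The call of Eif5 was lost without any single array other than control replicate 1 (adjusted p from 0.0621 to 0.108), with median scaling (0.407) and with no detection filter (0.101). With 1 probe a gene, that of highest signal, the called Eif5 probe was not the one kept, and no gene of this list was called.

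**Figure D3:**
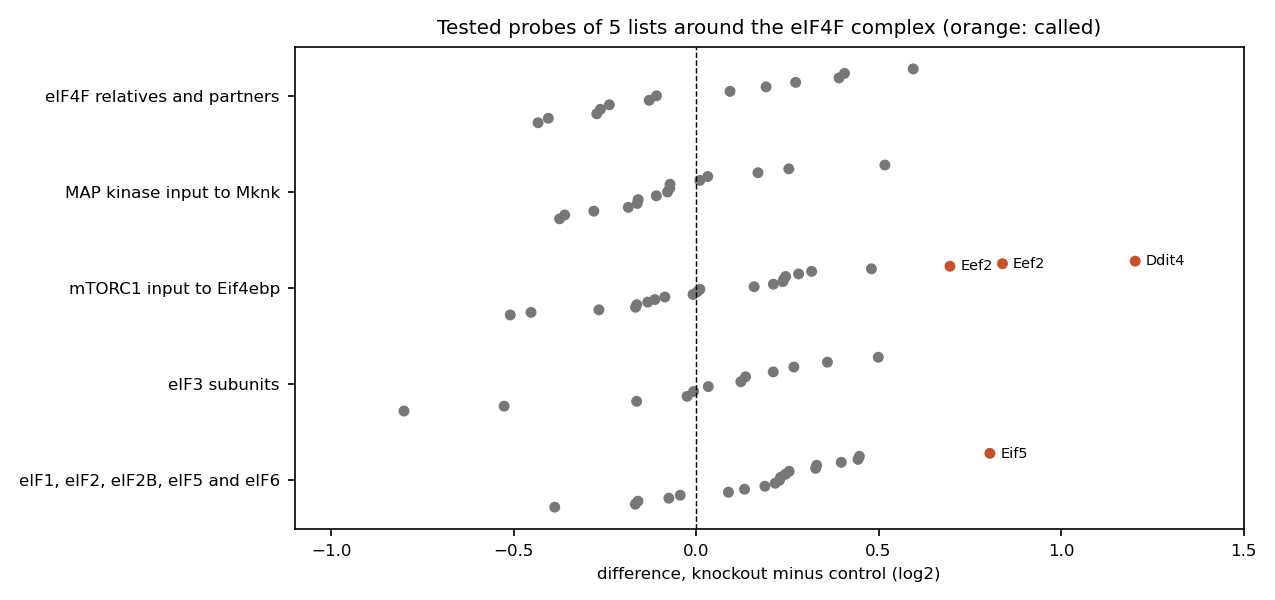
Difference between knockout and control (log2, horizontal axis) of the tested probes of 5 gene lists around eIF4F, 1 point per probe, spread vertically for legibility. Called probes are orange: 2 of Eef2 (0.70 and 0.84), 1 of Ddit4 (1.20) and 1 of Eif5 (0.80), and no probe is called lower.

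The values of Mknk2 and Eif4ebp1 behaved differently when the processing was varied. Under 15 other settings, single arrays left out included, the Mknk2 difference ran from 1.17 to 1.49 and its probe was called in all 15. The Eif4ebp1 difference ran from -0.81 to -0.47 and was lower in knockouts in all 15, and its probe was called in 4 of them.

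**Figure D4:**
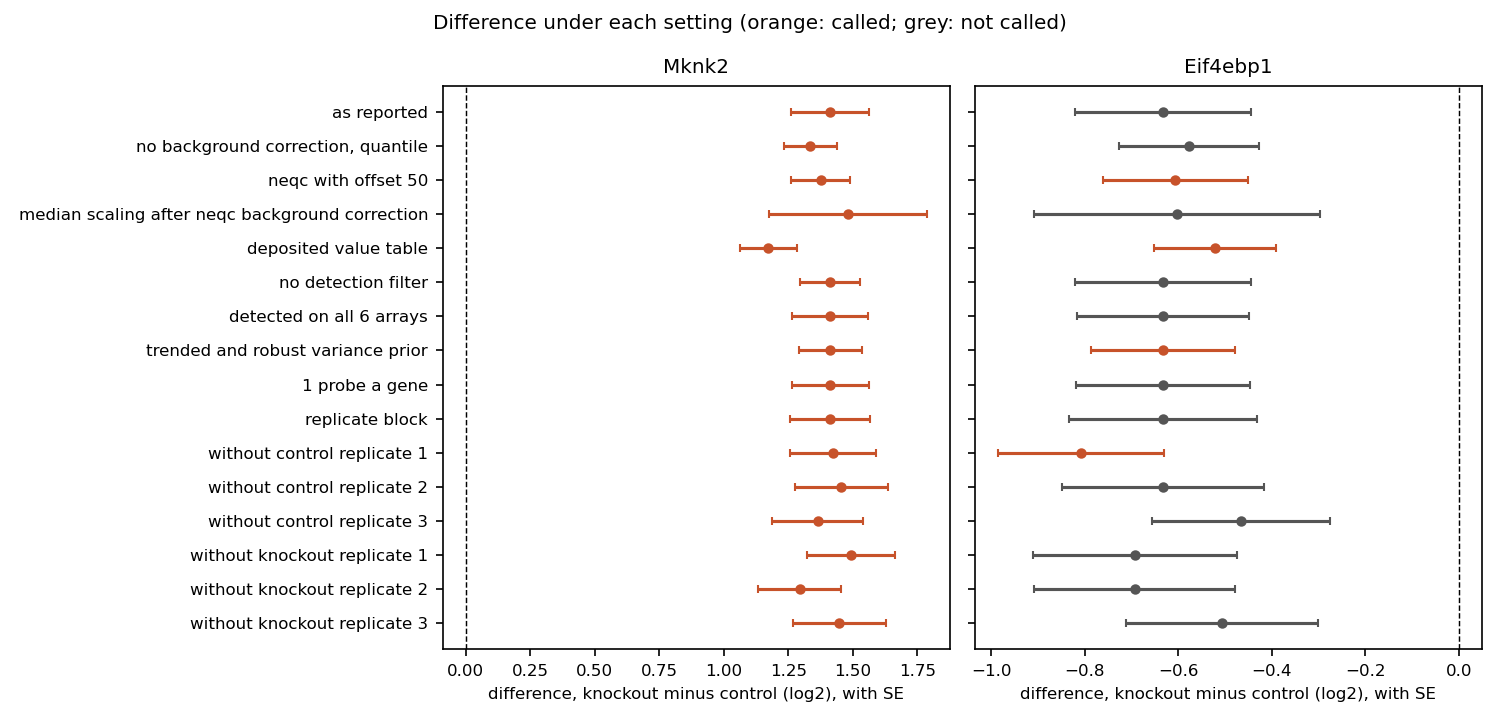
Difference between knockout and control (log2, horizontal axes) for Mknk2 and Eif4ebp1 as reported and under 15 other settings, with the standard error. Mknk2 is called (orange) in every setting, between 1.17 and 1.49, and Eif4ebp1, between -0.81 and -0.47, is called in 4.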

How the data were processed

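The authors deposited 2 tables of linear intensity for 25696 probes: 1 not normalized, with a detection p-value per probe and array per the file headers, and a value table normalized between arrays by a method not given in the sources used here. GenomeStudio is named, without a version, per the submitters' processing notes. Each array of the table that was not normalized was given its sample record by identity of ranks over all probes (Spearman rho 1.00; the highest other rho was 0.854), a choice made after the tables were seen. The platform annotation named 23977 probes, and 1719 are unnamed here.

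Background correction and quantile normalization used neqc (limma 3.58.1, R 4.3.3; negative controls inferred from detection p-values, offset 16). The 10407 probes kept were those detected (p below 0.05) on 3 or more of the 6 arrays. Knockout was compared with control by lmFit and eBayes (2-sided), with Benjamini-Hochberg adjustment over all kept probes and calls below 0.05. The number of arrays limits the precision, and no depth applies. The fit was also run on simulated data with independent noise, in which no array stood apart. That run therefore does not bear on how such arrays affect the calls. Figures were drawn with matplotlib 3.10.9.

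The members and lists were chosen with earlier results of these data known. Named were all members, the called genes of each list or its 2 genes of smallest p, and the 5 genes most correlated with a called member. List medians take the probe of highest signal per gene. Same-numbered arrays did not deviate together (correlations of -0.06, -0.00 and -0.06), so replicate numbers were not used as pairs. Alternatives varied the background correction, offset, scaling, table, detection filter, variance prior, feature, replicate block and single arrays.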

Additional observations from a re-analysis of the deposited data

How the results depend on the processing

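Probes called over the whole array numbered 395. The count was 694 with no background correction, 691 with an offset of 50, 69 with median scaling, 732 in the deposited value table, 163 with no detection filter and 773 with a trended and robust variance prior, and from 121 to 468 with 1 array left out. Under median scaling every probe received the same standard error, 0.306. Member probes called lower numbered 1 with an offset of 50, in the deposited value table and with the trended prior, each time Eif4ebp1, and 0 to 2 with 1 array left out. The 2 were Eif4ebp1 and Eif4e without control replicate 1, at -0.81 and -0.67. Member probes called higher numbered 1 under all 15 alternatives. With the replicate block 299 probes were called, the Mknk2 difference was 1.41 and called, and no call of a member, Ddit4, Eef2 or Eif5 changed. Genes called in the lists other than members varied from 0 to 4 per list. No chip or slide is named in the headers, so that block was not run. The precision is limited by 3 arrays per group.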
